A study of Homo sapiens with 12 samples.

Results

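The genes described here are 47 genes of G2 and mitosis, the phases in which a cell that has copied its DNA prepares to divide and then divides. They were taken as a list of gene symbols and matched to the Ensembl identifiers of the deposited table, where all 47 were found among 43876 genes. The values are FPKM, that is, fragments counted on a gene and divided by the length of the gene and the depth of the library. All 47 reached 1 FPKM in 3 or more libraries, as did 18574 genes in all, and these were tested.

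The libraries came from MV4-11 cells, a line from human acute myeloid leukemia with the FLT3-ITD mutation, although the genotype field of the labels reads wild-type. Cells were kept for 24 h with DMSO, with 20 nM of mitoxantrone (Mito-Lipo, named mitoxantrone in the sample labels and mitoxantrone-liposome in the paper), with 25 nM of Gilteritinib, or with a combination (Com) of 20 nM of the first drug and 20 nM of Gilteritinib, 3 libraries each and 12 in all. Mitoxantrone poisons DNA topoisomerase II, and gilteritinib inhibits the FLT3 kinase. All groups share 1 cell line and 1 time point, and nothing in the labels says that the replicates are separate cultures, so p-values measure only the spread between these libraries. The RNA was amplified before library construction. In these bulk libraries, fewer cells in G2 and mitosis and less RNA per such cell cannot be told apart.

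Depth recovered from the FPKM steps was 31725000 to 41331000 fragments per library. Leukemia markers were present in every library, with a summed FPKM of 899.5 to 1733 over 10 genes, while 12 markers of other lineages summed to 1.85 to 4.44. Replicate number 1 stood apart from numbers 2 and 3 in all 4 conditions on the first principal component, and the main comparisons are therefore also given with replicates 2 and 3 only.

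Entry into mitosis is driven by the kinase CDK1 bound to cyclin B, which WEE1-type kinases hold inactive and CDC25 phosphatases release. Aurora and Polo-like kinases then build the spindle, kinetochores attach chromosomes to microtubules, and the spindle checkpoint holds back CDC20 and the anaphase-promoting complex until all chromosomes are attached. Most of the genes are transcribed late in the cell cycle, and many carry in their promoters a CHR (cell cycle genes homology region) element and CCAAT boxes, read by the MuvB complexes and NF-Y. When p53 raises CDKN1A, the inhibitor encoded by this gene lets the repressive DREAM complex form at such promoters.

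Promoter windows from RefSeq (GRCh38.p14, from 250 bases before to 50 bases after the start of transcription) were at hand for 40 of the 47 genes, in 53 windows, and not for AURKA, BIRC5, BUB3, FOXM1, TPX2, TTK and UBE2C. They were searched on both strands for the CHR letters TTTGAA and TTCGAA and for the CCAAT box letters CCAAT. A CHR stood in 33 of the 53 windows (62.3%), against 12.5% of the 13317 windows of genes tested and 16.4% of all 35116 windows. CCAAT stood in 64.2% of the windows of the mitotic genes, against 35.2% and 34.6%. Both motifs together stood in 47.2%, against 5.04% and 6.38%. A match is a description of the letters and not a shown binding site. Other spellings of a CHR were not searched for, so a window without these letters is not shown to lack one. The 100 bases before a start of transcription are printed 5′ to 3′ for 7 genes with TTTGAA or TTCGAA in their windows. CDK1 has more than 1 start, and the stretch before the later one is printed. The 100 bases before the earlier start (chr10:60778231-60778330) hold neither CHR nor CCAAT letters. In that window they stand further from the start, with TTTGAA at -161 and CCAAT at -150. CCNA2 and CCNB1, with neither, are printed as well. The printed genes are examples, and none is from the spindle or chromosomal passenger role or from the pair FOXM1 and GTSE1. Capitals mark CHR and CCAAT letters on either strand, and in MKI67 one CHR and one CCAAT box (as ATTGG) overlap.
CDK1 (chr10:60778378-60778477, plus strand): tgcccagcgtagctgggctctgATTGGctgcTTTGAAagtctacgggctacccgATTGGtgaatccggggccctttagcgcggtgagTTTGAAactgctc
CCNB2 (chr15:59105046-59105145, plus strand): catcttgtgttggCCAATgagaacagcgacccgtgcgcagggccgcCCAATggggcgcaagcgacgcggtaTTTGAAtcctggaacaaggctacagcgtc
PLK1 (chr16:23678789-23678888, plus strand): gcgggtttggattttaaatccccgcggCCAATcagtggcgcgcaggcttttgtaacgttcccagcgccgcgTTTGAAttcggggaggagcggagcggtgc
CDC20 (chr1:43358881-43358980, plus strand): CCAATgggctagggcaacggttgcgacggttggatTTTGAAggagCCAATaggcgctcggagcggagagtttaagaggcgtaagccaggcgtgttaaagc
KIF23 (chr15:69414249-69414348, plus strand): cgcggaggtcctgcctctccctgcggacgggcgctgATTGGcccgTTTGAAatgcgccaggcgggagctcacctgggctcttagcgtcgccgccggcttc
CENPA (chr2:26785956-26786055, plus strand): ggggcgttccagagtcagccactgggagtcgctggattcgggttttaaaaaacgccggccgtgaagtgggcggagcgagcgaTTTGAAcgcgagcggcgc
MKI67 (chr10:128126424-128126523, minus strand): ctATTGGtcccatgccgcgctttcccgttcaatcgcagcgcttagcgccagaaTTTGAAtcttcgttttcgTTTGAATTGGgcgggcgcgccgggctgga
CCNA2 (chr4:121823884-121823983, minus strand): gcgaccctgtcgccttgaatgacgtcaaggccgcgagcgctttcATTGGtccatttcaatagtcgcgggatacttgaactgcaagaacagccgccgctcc
CCNB1 (chr5:69167050-69167149, plus strand): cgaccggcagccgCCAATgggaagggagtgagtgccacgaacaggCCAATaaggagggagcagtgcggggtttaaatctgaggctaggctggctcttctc
The 30 genes with TTTGAA or TTCGAA in at least 1 window had a median log2 difference of -0.25 between Mito-Lipo and DMSO. The 10 with neither had -0.22. All 47 genes lay below 0 in this comparison, so any split of them gives medians on the same side, and the split was not tested. The 10 with neither spelling are AURKB, CCNA2, CCNB1, CENPE, CKAP2, KIF20A, KIF2C, NEK2, PTTG1 and SMC1A.

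The mitotic genes were well expressed. Their mean FPKM over the 12 libraries ran from 1.11 (PRC1) to 112 (CCNB1), with a median of 34.1, and counting error was under 3% in 45 of 47. Below, differences are on the log2(FPKM + 1) scale with their standard error (SE), from limma, and n is 3 libraries per condition.

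**Figure D1:**
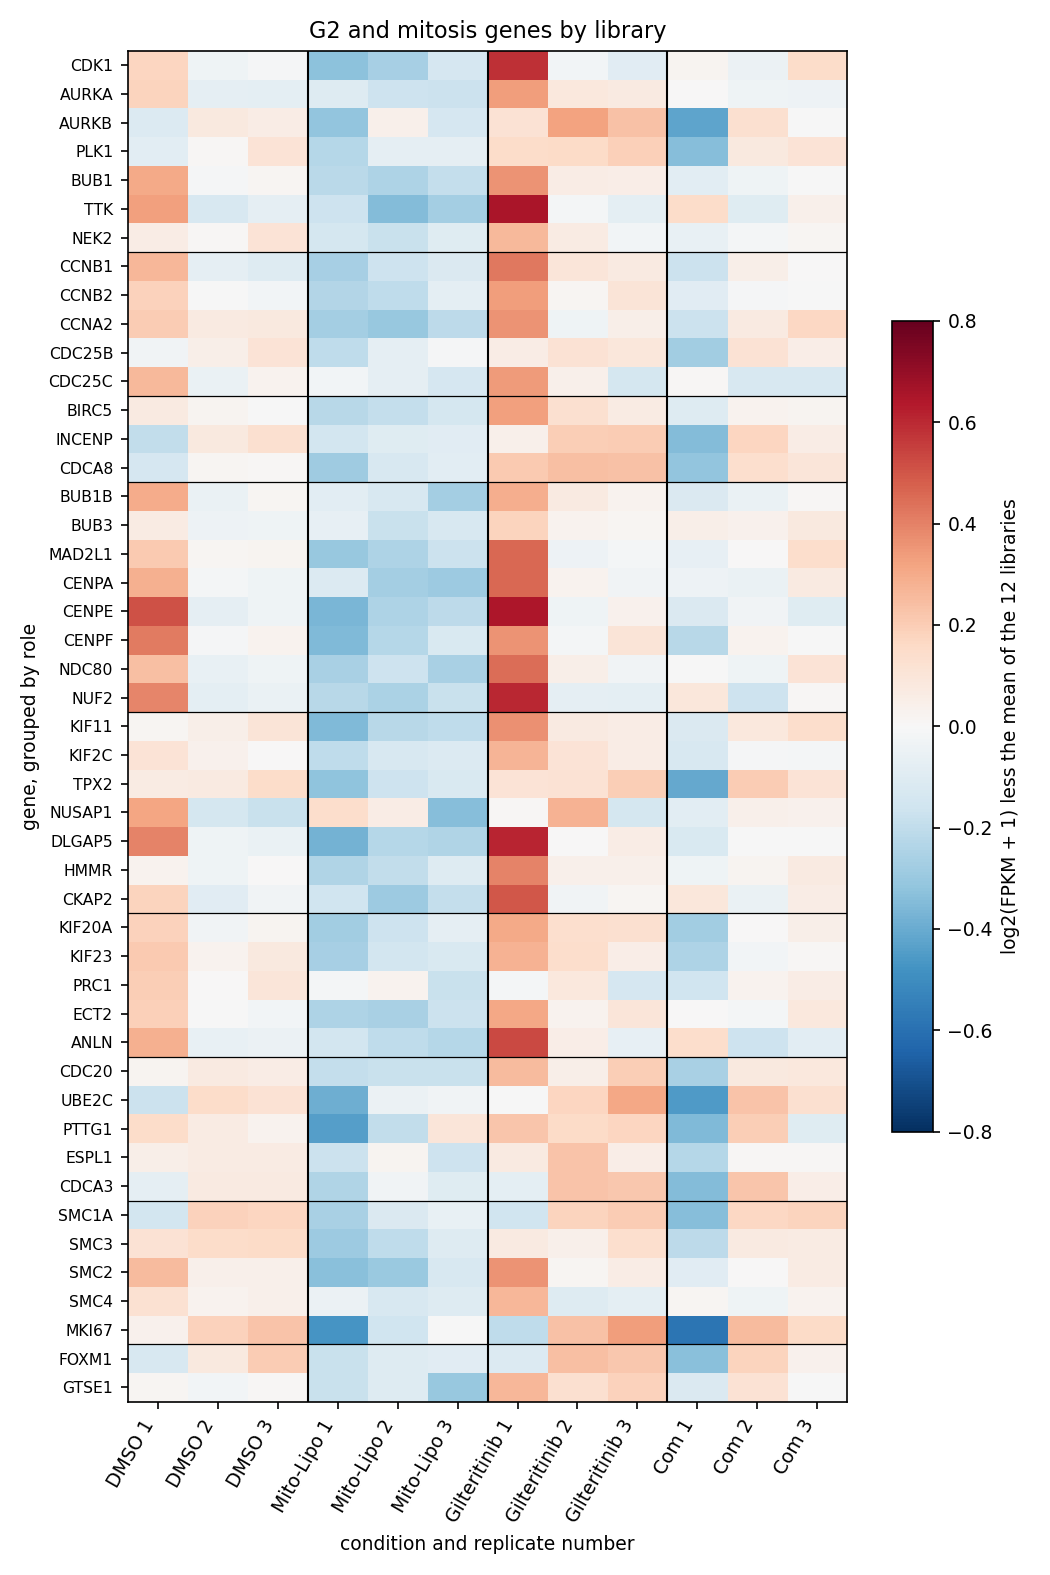
Log2(FPKM + 1) of each of the 47 genes less its mean over the 12 libraries (colour), with libraries in columns by condition and replicate number, and genes in rows by role, from kinases at the top to FOXM1 and GTSE1 at the bottom. The 3 Mito-Lipo columns are blue for most genes, while in replicate 1 the DMSO and Gilteritinib columns are red for many and the Com column is blue for most; values lie between -0.59 and 0.65.

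Mito-Lipo against DMSO asks what mitoxantrone alone did to these transcripts. All 47 were lower in Mito-Lipo, by a median of 15.4% in mean FPKM (log2 difference -0.23), from -0.41 for CENPE to -0.045 for NUSAP1. Among all genes tested, 43.0% were lower and the median difference was 0.030. Against a background nearer to these genes in level, 58.5% of 5464 protein-coding genes with a mean FPKM of at least 10 were lower, a background chosen after its values were seen. The differences were small and did not pass the adjusted test: none of the 47 had a limma adjusted p under 0.05, and none of the 18574 genes did (0.00%). At an unadjusted p under 0.05, 21 of the 47 were lower and none was higher, where 2.94% of all genes and 7.23% of the well-expressed protein-coding genes were lower by the same rule. With the replicate number as a block, the count was 30, against 6.46% of all genes and 786 of the 5464 well-expressed protein-coding genes. The 3 Mito-Lipo libraries lay below all 3 DMSO libraries in 34 of the 47, against 5.90% of all genes. The count of 21 was 9 without DMSO replicate 1, with a median of -0.20, and 11 and 12 without Mito-Lipo replicates 1 and 2. Here and below, counts with a library left out are given without the share of all genes. Whether the counts over all genes changed alike is therefore not shown.

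**Figure D2:**
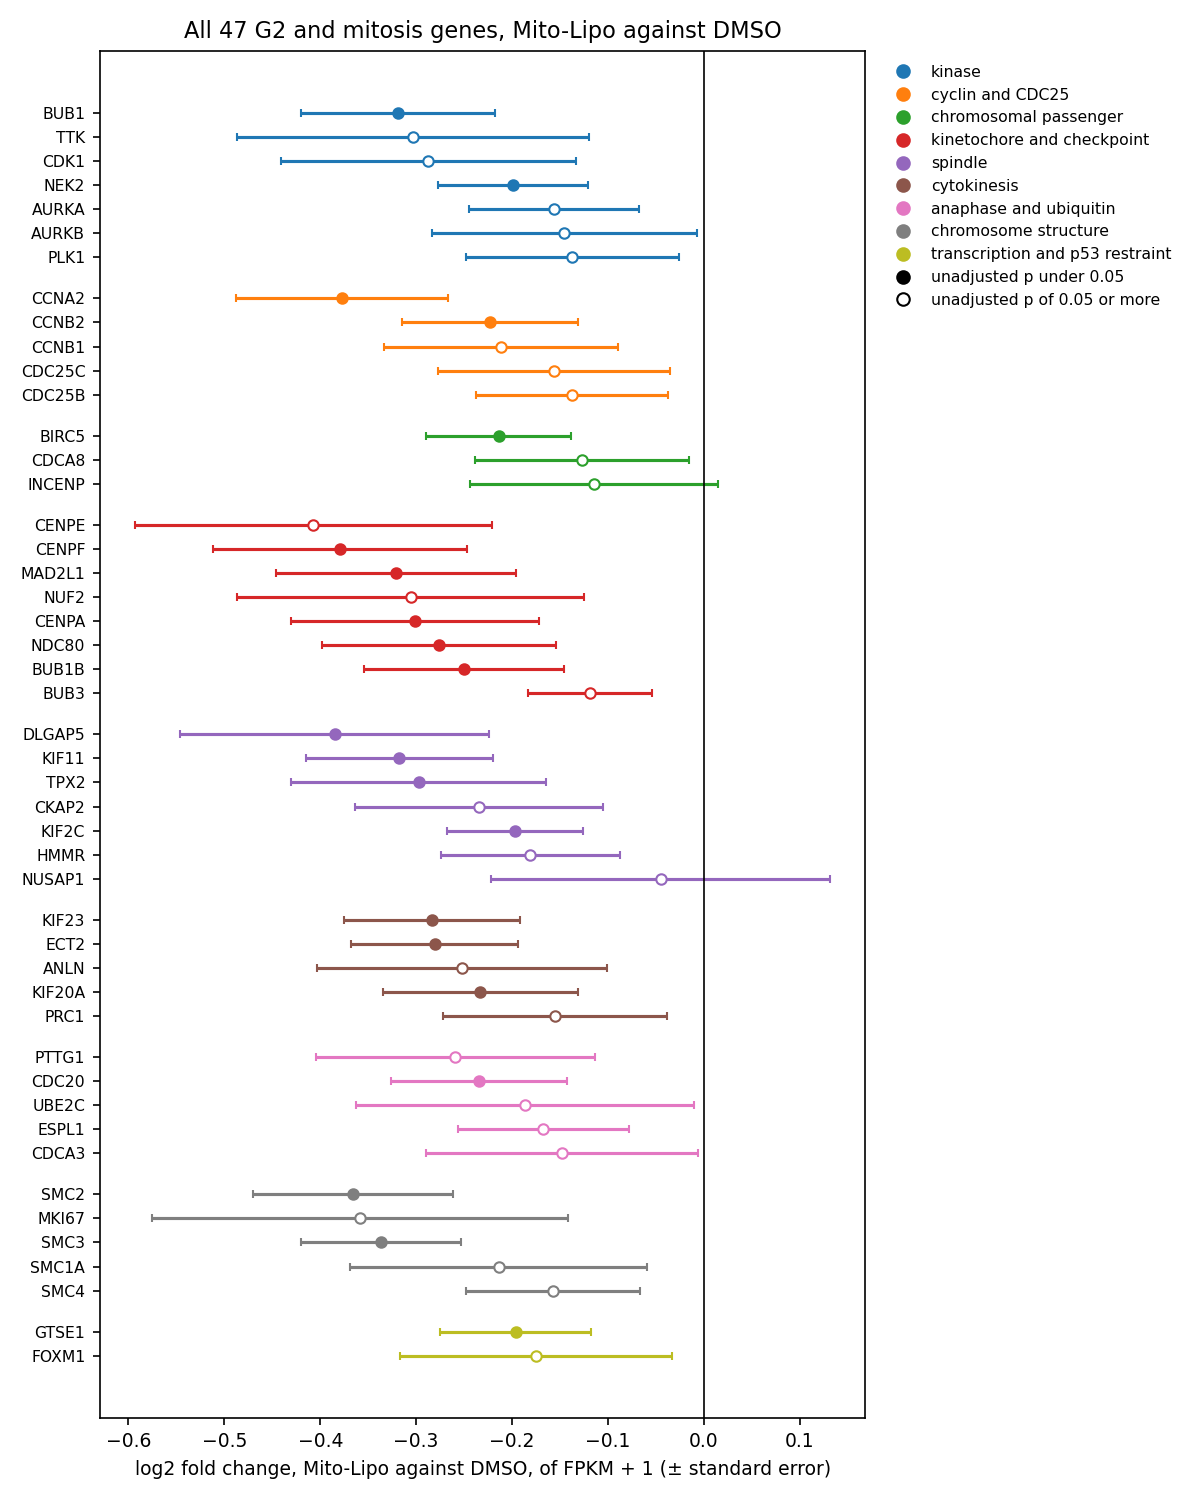
Log2 difference of FPKM + 1 between Mito-Lipo and DMSO for the 47 genes (point) with its standard error (bar), coloured by role; filled points have an unadjusted p under 0.05. All 47 points lie left of 0, from -0.41 (CENPE) to -0.045 (NUSAP1), and 21 are filled.

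With replicates 2 and 3 only, which leaves 2 libraries per condition, 46 of the 47 were lower in Mito-Lipo with a median of -0.18. In that fit, 3.32% of all genes and 457 of the 5464 well-expressed protein-coding genes passed the limma adjusted p of 0.05 and were lower. Of the 47, 11 passed and were lower. They were BUB1, CCNA2, BIRC5, CENPA, KIF11, TPX2, DLGAP5, CDC20, SMC1A, SMC3 and SMC4. The strongest of them was KIF11, with a log2 difference of -0.29 ± 0.037 (SE) and a limma adjusted p of 0.00988.

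By role, the medians of Mito-Lipo against DMSO were -0.34 for the 5 chromosome structure genes, -0.30 for the 8 kinetochore and checkpoint genes, -0.25 for the 5 cytokinesis genes and -0.23 for the 7 spindle genes. The cyclin and CDC25 genes had -0.21, the kinases -0.20, the anaphase and ubiquitin genes -0.19 and the chromosomal passenger genes -0.13. The order was not the same at each replicate number: the kinetochore median was -0.50 at number 1 and -0.18 at numbers 2 and 3, and the kinase median was -0.28 at number 1, -0.18 at number 2 and -0.19 at number 3. Differences between roles were not tested, since genes are not replicates.

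CDK1 (chr10:60778331-60794852, GRCh38 as in GENCODE 29), the kinase that starts mitosis, had an FPKM of 96.6, 83.4 and 84.9 in DMSO, 67.8, 70.9 and 77.6 in Mito-Lipo, 129, 84.3 and 80.3 in Gilteritinib and 86.9, 82.6 and 94.9 in Com at replicates 1, 2 and 3. The Mito-Lipo libraries were the lowest 3 of the 12, and the single highest value was Gilteritinib replicate 1. The log2 difference of Mito-Lipo from DMSO was -0.29 ± 0.15 (SE; limma adjusted p = 0.703), with a 95% interval of -0.63 to 0.052. PLK1, the Polo-like kinase of spindle and centrosome assembly, had 26.7, 28.6 and 30.6 in DMSO, 24.1, 26.9 and 26.9 in Mito-Lipo, 31.6, 31.7 and 32.5 in Gilteritinib and 22.2, 30.003 and 30.6 in Com. DMSO replicate 1 lay below Mito-Lipo replicates 2 and 3, and the difference was -0.14 ± 0.11 (limma adjusted p = 0.851). AURKA, the Aurora kinase of the spindle poles, had 43.7, 36.5 and 36.3 in DMSO, 35.7, 34.2 and 34.02 in Mito-Lipo, 48.7, 40.9 and 40.6 in Gilteritinib and 38.5, 37.5 and 37.4 in Com. Every Mito-Lipo library was below every library of the other conditions. AURKB, the Aurora kinase of the chromosomal passenger complex, had 35.2, 40.2 and 39.6 in DMSO, 30.4, 39.1 and 34.6 in Mito-Lipo, 41.2, 47.8 and 44.9 in Gilteritinib and 28.2, 41.7 and 38.002 in Com. It overlapped between Mito-Lipo and DMSO (-0.15 ± 0.14, limma adjusted p = 0.886), and the Com library of replicate 1 was the lowest of all.

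TTK, the checkpoint kinase that phosphorylates kinetochores, had 29.01, 20.9 and 21.8 in DMSO, 20.3, 17.8 and 18.8 in Mito-Lipo, 36.6, 22.7 and 21.6 in Gilteritinib and 25.4, 21.4 and 23.6 in Com. Replicate 1 was the highest library of each condition, and Mito-Lipo was lower than DMSO at each number. BUB1, a checkpoint kinase at kinetochores, had 69.1, 55.3 and 56.4 in DMSO, 47.99, 46.8 and 48.9 in Mito-Lipo, 71.7, 58.2 and 57.8 in Gilteritinib and 52.6, 54.4 and 55.7 in Com, and its difference of -0.32 ± 0.10 had the smallest p of the kinases (limma adjusted p = 0.507). NEK2, a centrosome kinase, had 16.5, 15.8 and 17.1 in DMSO and 14.2, 13.8 and 14.7 in Mito-Lipo. All 3 Mito-Lipo libraries of both genes lay below DMSO.

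**Figure D3:**
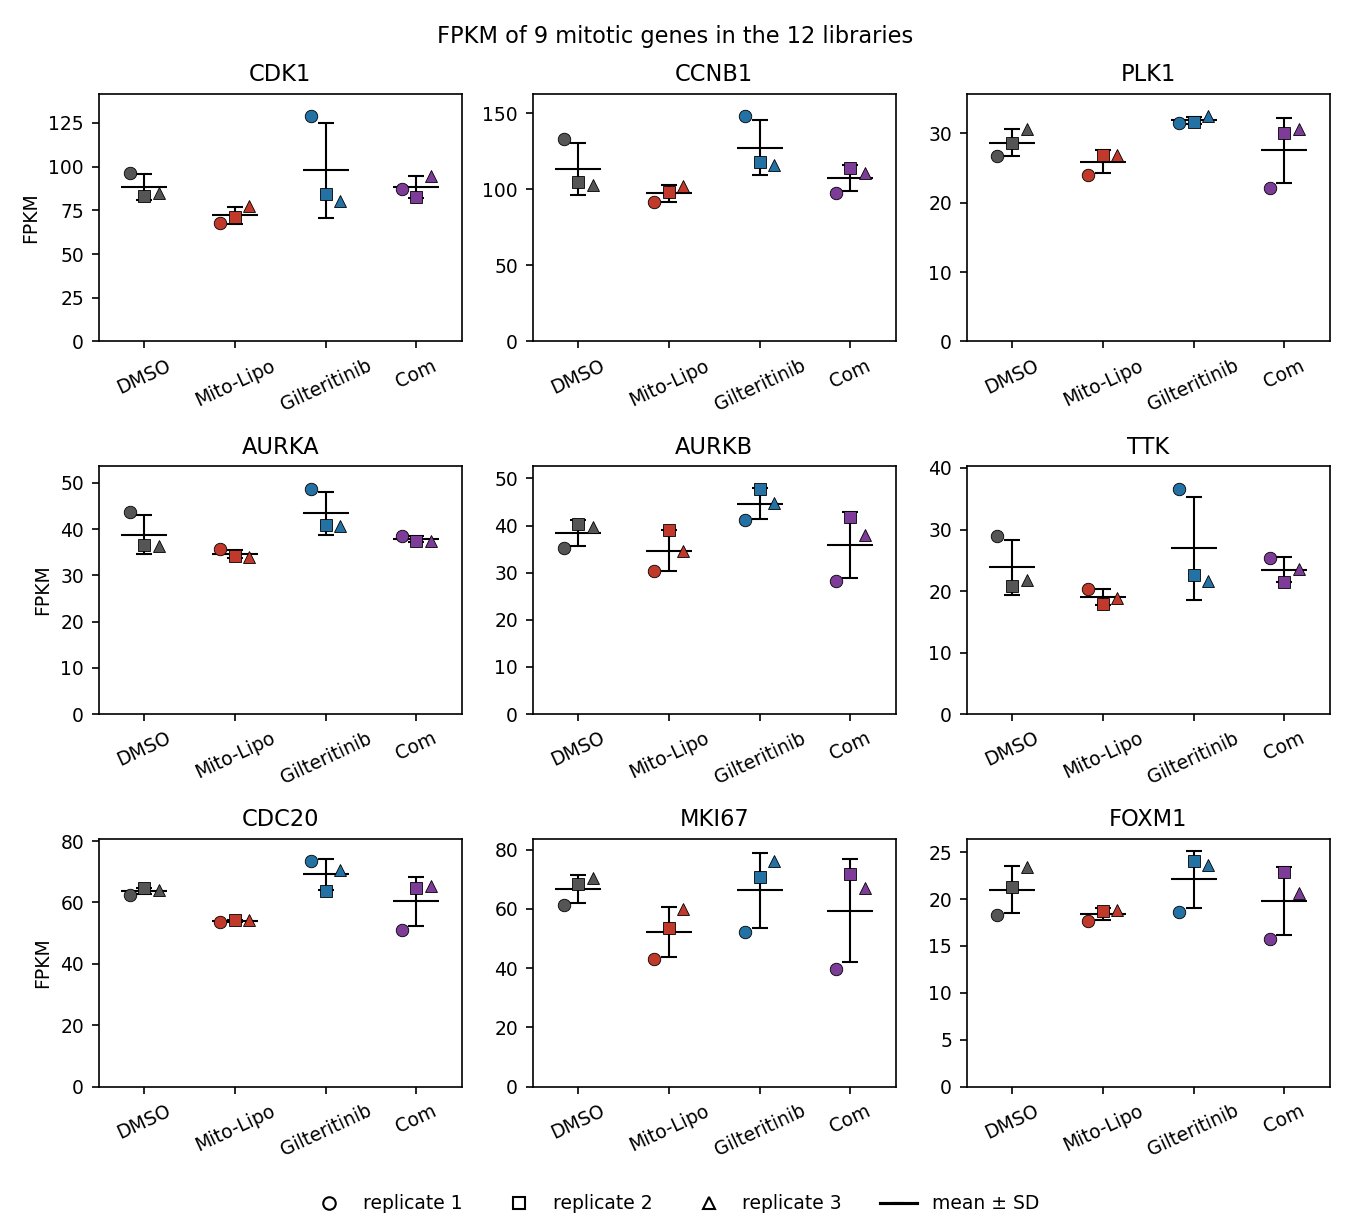
FPKM of 9 mitotic genes in each of the 12 libraries (points, shaped by replicate number) by condition, with the mean and SD of 3 libraries; each axis starts at 0. Mito-Lipo has the lowest mean of the 4 conditions in all 9 genes, and replicate 1 lies high for TTK and low for MKI67 in Gilteritinib and Com.

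Of the cyclins, CCNB1, which encodes cyclin B1, had 133, 105 and 103 in DMSO, 91.6, 98.4 and 102 in Mito-Lipo, 148, 118 and 116 in Gilteritinib and 97.95, 114 and 111 in Com. DMSO replicate 3 (103) and Mito-Lipo replicate 3 (102) were nearly equal, and the difference over all libraries was -0.21 ± 0.12 (limma adjusted p = 0.73). CCNB2, for cyclin B2, had 42.2, 36.99 and 36.5 in DMSO, 31.4, 32.1 and 35.1 in Mito-Lipo, 47.05, 37.5 and 39.9 in Gilteritinib and 34.7, 36.8 and 37.03 in Com. CCNA2, for cyclin A2, which acts in S phase and in early mitosis, had 74.3, 67.7 and 67.95 in DMSO, 53.1, 52.1 and 55.7 in Mito-Lipo, 82.8, 62.9 and 66.4 in Gilteritinib and 57.2, 67.7 and 72.5 in Com. It was the cyclin with the largest difference, -0.38 ± 0.11 (limma adjusted p = 0.492), its Mito-Lipo libraries lay below every library of the other conditions, and it passed with replicates 2 and 3 only (-0.33 ± 0.051, limma adjusted p = 0.0201). The phosphatases that activate CDK1 differed less: CDC25B had -0.14 ± 0.10 and CDC25C had -0.16 ± 0.12, and in both the libraries of Mito-Lipo and DMSO overlapped.

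In the chromosomal passenger complex, BIRC5, which encodes survivin, had 41.1, 39.7 and 38.96 in DMSO, 33.4, 34.1 and 35.3 in Mito-Lipo, 49.4, 42.7 and 40.9 in Gilteritinib and 36.2, 39.8 and 39.6 in Com. Its Mito-Lipo libraries were the lowest 3 of the 12 (-0.21 ± 0.076, limma adjusted p = 0.526). INCENP, the scaffold of the complex, had 23.6, 28.8 and 29.8 in DMSO, 24.4, 25.3 and 25.5 in Mito-Lipo, 27.9, 31.3 and 31.4 in Gilteritinib and 21.1, 30.7 and 28.4 in Com, and at replicate number 1 it was higher in Mito-Lipo than in DMSO. CDCA8, which encodes borealin, had 33.7, 37.4 and 37.4 in DMSO, 30.3, 33.9 and 35.004 in Mito-Lipo, 42.96, 44.04 and 43.8 in Gilteritinib and 29.6, 40.8 and 39.8 in Com. The differences of the latter pair, -0.11 ± 0.13 and -0.13 ± 0.11, were among the smaller ones.

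The 8 kinetochore and checkpoint genes held 5 of the 21 below an unadjusted p of 0.05. CENPF, a large protein of the outer kinetochore, had 60.6, 45.01 and 46.2 in DMSO, 35.2, 38.5 and 41.5 in Mito-Lipo, 58.4, 44.8 and 48.7 in Gilteritinib and 38.7, 46.2 and 45.2 in Com, and its difference was -0.38 ± 0.13 (limma adjusted p = 0.523). DMSO and Gilteritinib replicate 1 were its highest 2 libraries. MAD2L1, the checkpoint protein that holds CDC20, had 27.2, 23.7 and 23.8 in DMSO, 18.9, 19.6 and 20.7 in Mito-Lipo, 32.6, 22.8 and 23.2 in Gilteritinib and 22.4, 23.5 and 25.96 in Com and a difference of -0.32 ± 0.13. CENPA, the histone H3 variant that marks centromeres, had 47.1, 38.2 and 37.6 in DMSO, 35.7, 31.7 and 31.4 in Mito-Lipo, 53.4, 39.4 and 37.9 in Gilteritinib and 37.4, 37.1 and 40.7 in Com. Its Mito-Lipo libraries lay below all other libraries, and it passed with replicates 2 and 3 only (limma adjusted p = 0.0352). CENPE, a kinetochore motor, had 23.02, 15.1 and 15.5 in DMSO and 12.1, 13.2 and 13.6 in Mito-Lipo. The log2 difference was -0.87 at number 1, -0.18 at number 2 and -0.17 at number 3, so that its place at the low end of the range, -0.41 ± 0.19, rests mostly on replicate number 1. NDC80 and NUF2, which form the microtubule-binding NDC80 complex, had -0.28 ± 0.12 and -0.31 ± 0.18. BUB1B, which encodes the checkpoint kinase-like protein BUBR1, had -0.25 ± 0.10, and BUB3, its partner, had -0.12 ± 0.065.

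KIF11 (chr10:92593286-92655395), the motor that pushes spindle poles apart, had 34.3, 35.02 and 36.5 in DMSO, 26.3, 28.8 and 29.2 in Mito-Lipo, 43.9, 35.5 and 35.3 in Gilteritinib and 31.2, 35.9 and 37.4 in Com. Its Mito-Lipo libraries were the lowest 3 of the 12, and the difference from DMSO was -0.32 ± 0.10 (limma adjusted p = 0.494). KIF2C, a microtubule-depolymerizing motor at centromeres, had 43.4, 41.2 and 40.3 in DMSO, 34.8, 36.6 and 37.1 in Mito-Lipo, 48.7, 43.3 and 41.8 in Gilteritinib and 36.6, 39.9 and 39.7 in Com, with a difference of -0.20 ± 0.071. TPX2, the activator of AURKA on the spindle, had 63.9, 64.2 and 67.5 in DMSO, 48.5, 54.3 and 55.96 in Mito-Lipo, 65.8, 66.2 and 69.9 in Gilteritinib and 45.6, 70.3 and 65.9 in Com. Com replicate 1 was its lowest library and Com replicate 2 its highest. The microtubule-associated DLGAP5 had -0.39 ± 0.16 in Mito-Lipo against DMSO, the largest spindle difference, HMMR had -0.18 ± 0.093 and CKAP2 had -0.23 ± 0.13.

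Among the cytokinesis genes, KIF23, a motor of the central spindle, had 24.98, 21.9 and 22.7 in DMSO, 17.7, 19.3 and 19.6 in Mito-Lipo, 26.2, 23.8 and 22.3 in Gilteritinib and 17.9, 21.1 and 21.6 in Com. ECT2, which activates RhoA at the division site, had 23.1, 20.04 and 19.8 in DMSO, 16.8, 16.6 and 17.7 in Mito-Lipo, 25.1, 20.5 and 21.5 in Gilteritinib and 20.2, 19.9 and 21.4 in Com. In both genes the Mito-Lipo libraries lay below DMSO, with differences of -0.28 ± 0.092 and -0.28 ± 0.087 (limma adjusted p = 0.507 and 0.494). KIF20A, another central spindle motor, had -0.23 ± 0.10, and ANLN, the contractile ring scaffold anillin, had -0.25 ± 0.15.

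CDC20, the activator of the anaphase-promoting complex, had 62.6, 64.6 and 64.1 in DMSO, 53.8, 54.2 and 54.2 in Mito-Lipo, 73.4, 63.6 and 70.5 in Gilteritinib and 51.2, 64.8 and 65.2 in Com. The Mito-Lipo libraries lay close together and below every DMSO library, and the difference from DMSO was -0.23 ± 0.092 (limma adjusted p = 0.576; with replicates 2 and 3 only, 0.0416). ESPL1, which encodes the protease separase, had 14.8, 14.99 and 15.01 in DMSO and 12.5, 14.5 and 12.6 in Mito-Lipo. UBE2C, the ubiquitin-conjugating enzyme of that complex, had 63.8, 79.8 and 78.04 in DMSO and 54.7, 69.6 and 70.5 in Mito-Lipo, with low replicate 1 libraries in both conditions. PTTG1, which encodes securin, was lower in Mito-Lipo at numbers 1 and 2 and higher at number 3 (74.2 against 70.8), and CDCA3 had a difference of -0.15 ± 0.14.

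SMC3 (chr10:110567691-110604636), a cohesin subunit, had 33.99, 34.9 and 34.9 in DMSO, 25.5, 27.1 and 29.1 in Mito-Lipo, 33.02, 32.3 and 34.6 in Gilteritinib and 26.9, 32.96 and 32.9 in Com. It had the smallest p of the 47 in this comparison, with a difference of -0.34 ± 0.084 (95% interval -0.52 to -0.15, limma adjusted p = 0.474). SMC2, a condensin subunit, had 37.9, 32.6 and 32.5 in DMSO, 24.9, 25.5 and 28.8 in Mito-Lipo, 40.9, 31.95 and 32.9 in Gilteritinib and 29.6, 31.7 and 33.02 in Com, with -0.37 ± 0.10. SMC1A, the cohesin partner of SMC3, had 25.7, 32.5 and 32.2 in DMSO, 23.6, 26.2 and 27.4 in Mito-Lipo, 25.4, 32.4 and 32.98 in Gilteritinib and 22.3, 32.04 and 32.4 in Com, and DMSO replicate 1 lay below Mito-Lipo replicates 2 and 3. With replicates 2 and 3 only, SMC1A differed by -0.26 ± 0.034 (limma adjusted p = 0.0105). SMC4, the condensin partner of SMC2, had -0.16 ± 0.091 over all libraries. MKI67, the Ki-67 proliferation antigen that coats mitotic chromosomes, had 61.4, 68.4 and 70.4 in DMSO, 43.03, 53.7 and 59.98 in Mito-Lipo, 52.1, 70.8 and 76.1 in Gilteritinib and 39.7, 71.8 and 66.97 in Com. The means were 66.7 ± 4.72 in DMSO and 52.2 ± 8.57 in Mito-Lipo (SD, n = 3), the libraries did not overlap, and the difference of -0.36 ± 0.22 had the largest standard error of the 47 (limma adjusted p = 0.756).

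FOXM1, the transcription factor of late cell cycle genes, had 18.3, 21.3 and 23.4 in DMSO, 17.7, 18.7 and 18.9 in Mito-Lipo, 18.6, 24.03 and 23.6 in Gilteritinib and 15.7, 22.9 and 20.7 in Com. DMSO replicate 1 lay within the Mito-Lipo range, and the difference was -0.18 ± 0.14. GTSE1, which restrains p53 in G2, had 20.4, 19.9 and 20.3 in DMSO, 17.7, 18.7 and 16.2 in Mito-Lipo, 24.5, 22.2 and 23.04 in Gilteritinib and 18.6, 22.01 and 20.2 in Com. The Gilteritinib libraries were its highest 3 and the Mito-Lipo and DMSO libraries did not overlap (-0.20 ± 0.079, limma adjusted p = 0.582).

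Gilteritinib alone left these genes near or a little above DMSO. Of the 47, 43 were higher, with a median log2 difference of 0.089 (6.87% in mean FPKM), where 40.2% of all genes were higher and their median was -0.025. None passed the limma adjusted p of 0.05, and 2 were higher at an unadjusted p under 0.05, against 0.565% of all genes, or 4 against 1.26% with the replicate block. The pair was CDCA8, at 0.26 ± 0.11, and GTSE1, at 0.19 ± 0.079 (limma adjusted p = 1 for each). The 7 kinases had a median of 0.14 and the chromosome structure genes -0.024. Without Gilteritinib replicate 1, in which TTK, CDK1 and NUF2 reached 36.6, 129 and 39.96 FPKM, the median was 0.0087. The count of 2 was 0 without that library, and also without DMSO replicate 2 or 3, and the median was 0.14 without DMSO replicate 1 and 0.059 without DMSO replicate 2. With replicates 2 and 3 only, 36 of the 47 were higher with a median of 0.057, against 48.6% of all genes, and 6 were higher and 1 lower at an unadjusted p under 0.05, where 4.34% of all genes were higher by that rule. Of the 5464 well-expressed protein-coding genes, 402 were higher by it.

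The largest contrast among conditions was that of Gilteritinib with Mito-Lipo, which shares its libraries with both comparisons above. All 47 genes were higher in Gilteritinib, by a median of 27.9% in mean FPKM (log2 difference 0.35), against 36.1% of all genes higher and a median of -0.061. At an unadjusted p under 0.05, 35 of the 47 were higher, where 2.96% of all genes were, and 43 were with the replicate block, where 5.45% were. Of the 5464 well-expressed protein-coding genes, 449 were higher by the first rule and 789 with the block. The libraries did not overlap in 39, against 5.25% of all genes. None passed the limma adjusted p of 0.05 over the 12 libraries. With replicates 2 and 3 only, 25 passed, against 2.65% of all genes, and 445 of the 5464 well-expressed protein-coding genes, passing and higher. The smallest p belonged to GTSE1 (0.39 ± 0.079, limma adjusted p = 0.236), BIRC5 (0.36 ± 0.076) and KIF11 (0.43 ± 0.10). All 7 kinases were among the 35, with a median of 0.36, and so were 7 of 8 kinetochore, 6 of 7 spindle and 4 of 5 cytokinesis genes. The 12 outside were CDC25B, CDC25C, INCENP, NUF2, NUSAP1, PRC1, UBE2C, CDCA3, SMC1A, SMC4, MKI67 and FOXM1.

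Com held the same dose of mitoxantrone as Mito-Lipo, and its mitotic genes lay between the single drugs on average. Against DMSO, 43 of the 47 were lower, with a median of -0.085, where 54.0% of all genes were lower, and none passed an unadjusted p of 0.05. Over all genes, 1 passed the adjusted test in this comparison (0.00538%), and it was no member. Against Gilteritinib, all 47 were lower, with a median of -0.18, against 42.8% of all genes. Of these, 7 had an unadjusted p under 0.05 (AURKB, BIRC5, CDCA8, KIF2C, KIF20A, KIF23 and GTSE1), where 0.829% of all genes did, and 13 with the replicate block, where 1.91% did. The libraries did not overlap in 14, against 2.33%. The median against Gilteritinib with replicates 2 and 3 only was -0.041, with 34 of the 47 lower and 13 higher, against 51.0% of all genes lower, and 4 were lower and 1 higher at an unadjusted p under 0.05, where 2.61% of all genes were lower. By replicate number the medians were -0.44, -0.029 and -0.043. The count of 7 was 0 without Com replicate 1 and 1 without Gilteritinib replicate 1, with medians of -0.11 and -0.10. The median against DMSO was -0.018 without Com replicate 1 and -0.042 without DMSO replicate 1.

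Against Mito-Lipo, 46 of the 47 were higher in Com, with a median of 0.15 (12.3% in mean FPKM), where 40.5% of all genes were higher, and CDC25C had -0.0030. At an unadjusted p under 0.05 there were 6 (CCNA2, BUB3, KIF11, ECT2, SMC2 and GTSE1), against 1.41% of all genes, and 10 with the replicate block, against 3.60%. Of the 5464 well-expressed protein-coding genes, 174 were higher by the first rule and 419 with the block. KIF11 had the smallest p, at 0.30 ± 0.10 (limma adjusted p = 0.888). The libraries did not overlap in 20, against 3.22% of all genes. The count of 6 was 17 without Com replicate 1, with a median of 0.23, 1 without Com replicate 3, and 3 without Com replicate 2 or Mito-Lipo replicate 1 or 2. With replicates 2 and 3 only, 17 passed the limma adjusted p of 0.05, where 2.62% of all genes and 409 of the 5464 well-expressed protein-coding genes passed and were higher. The dose of Gilteritinib was lower in Com (20 nM) than alone (25 nM), so Com is not the sum of the single treatments at equal doses.

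The interaction, which subtracts the difference of Mito-Lipo from DMSO from that of Com from Gilteritinib, asks whether mitoxantrone shifted these genes by the same amount with and without gilteritinib. Its median was 0.067, with 34 of the 47 above 0, against 47.4% of all genes, and none had an unadjusted p under 0.05 (9 without Gilteritinib replicate 1 and 3 without Com replicate 1). The share of all genes in the latter fits is not given, so the 9 and the 3 are not shown to exceed it. The median turned sign by replicate number, at -0.057, 0.14 and 0.15 for numbers 1, 2 and 3. With 1 library left out it was 0.035 or 0.020 without Gilteritinib replicate 2 or 3, 0.041 without Com replicate 2, 0.027 and 0.10 without DMSO replicates 1 and 2, and 0.13 without Gilteritinib replicate 1 or Com replicate 1. All 8 kinetochore genes and all 5 chromosome structure genes were above 0, with medians of 0.13 and 0.18. In the fit with replicates 2 and 3 only, the median was 0.14 with 41 of the 47 above 0, against 44.7% of all genes, and 2 genes passed the limma adjusted p of 0.05, CCNA2 and KIF11, where 1.70% of all genes passed and were higher. Over the 12 libraries neither had an unadjusted p under 0.05. Of the 5464 well-expressed protein-coding genes, 216 passed the limma adjusted p of 0.05 and were higher with replicates 2 and 3 only.

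The position of Com depended on the replicate number. At number 1, all 47 genes were lower in Com than in DMSO, with a median of -0.27, and at numbers 2 and 3 the medians were 0.034 and 0.0071, with 19 and 23 genes lower. Mito-Lipo was lower than DMSO at each number, in 46, 45 and 46 genes, with medians of -0.37, -0.18 and -0.18, and 43 genes were lower at all 3 numbers. Mito-Lipo was the lowest of the 4 conditions in 31, 43 and 45 genes at numbers 1, 2 and 3, and Com was the lowest in 16 at number 1. The counts in this paragraph were made for the 47 genes only. Whether all genes moved alike at a single number is not shown by them, and each number holds 1 library per condition. MKI67 shows the pattern, with Com at 39.7, 71.8 and 67.0 FPKM and DMSO at 61.4, 68.4 and 70.4. CCNB1 shows it as well, with Com at 97.9, 114 and 111 against 133, 105 and 103.

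**Figure D4:**
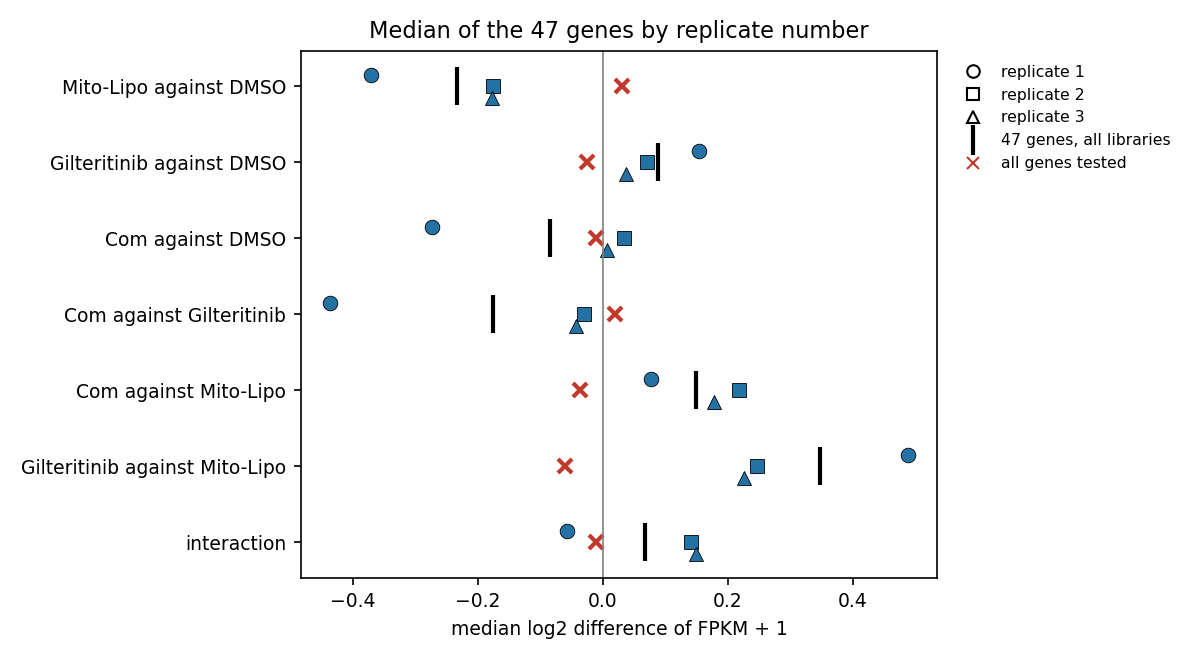
Median log2 difference of FPKM + 1 over the 47 genes in each comparison (rows), at replicate numbers 1, 2 and 3 (points by shape) and over all libraries (vertical bar), with the median of all genes tested (cross). Mito-Lipo against DMSO is below 0 at each number (-0.37, -0.18 and -0.18), while Com against DMSO is -0.27 at number 1 and close to 0 at numbers 2 and 3.

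Replicate number 1 also differed from numbers 2 and 3 across conditions. In a fit with the condition, 17 of the 47 genes had a limma adjusted p under 0.05, 7 higher in replicate 1, against 26.3% of all genes, and 10 lower, against 12.1%. Of 5464 well-expressed protein-coding genes, 1261 were higher and 1273 lower by the same rule. In neither direction was the share among the 47 above that of this background. The higher ones were AURKA, TTK, CDC25C, CENPA, NUF2, CKAP2 and ANLN, with TTK furthest at 0.36 ± 0.084 (limma adjusted p = 0.0103). The lower ones were AURKB, PLK1, CDC25B, INCENP, CDCA8, UBE2C, CDCA3, SMC1A, MKI67 and FOXM1, with MKI67 furthest at -0.46 ± 0.084 (limma adjusted p = 0.00373). Annotated transcripts of the 7 had a GC share of 37.8 to 49.4%, with a median of 40.4%, and those of the 10 had 47.7 to 59.3%, with a median of 53.8%.

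Over the 47 genes, the Pearson correlation of GC share with the replicate 1 difference was -0.65, and over 5463 well-expressed protein-coding genes it was -0.24. The correlation of GC share with the difference of Mito-Lipo from DMSO was 0.59 over all libraries, 0.66 at number 1, 0.29 at number 2 and -0.098 at number 3. These are across genes that share libraries and are not independent, and are given as a description. The part of GC share in the differences between conditions was not tested. The median of replicate 1 less the mean of numbers 2 and 3 was 0.13 in DMSO, 0.24 in Gilteritinib, -0.091 in Mito-Lipo and -0.14 in Com.

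**Figure D5:**
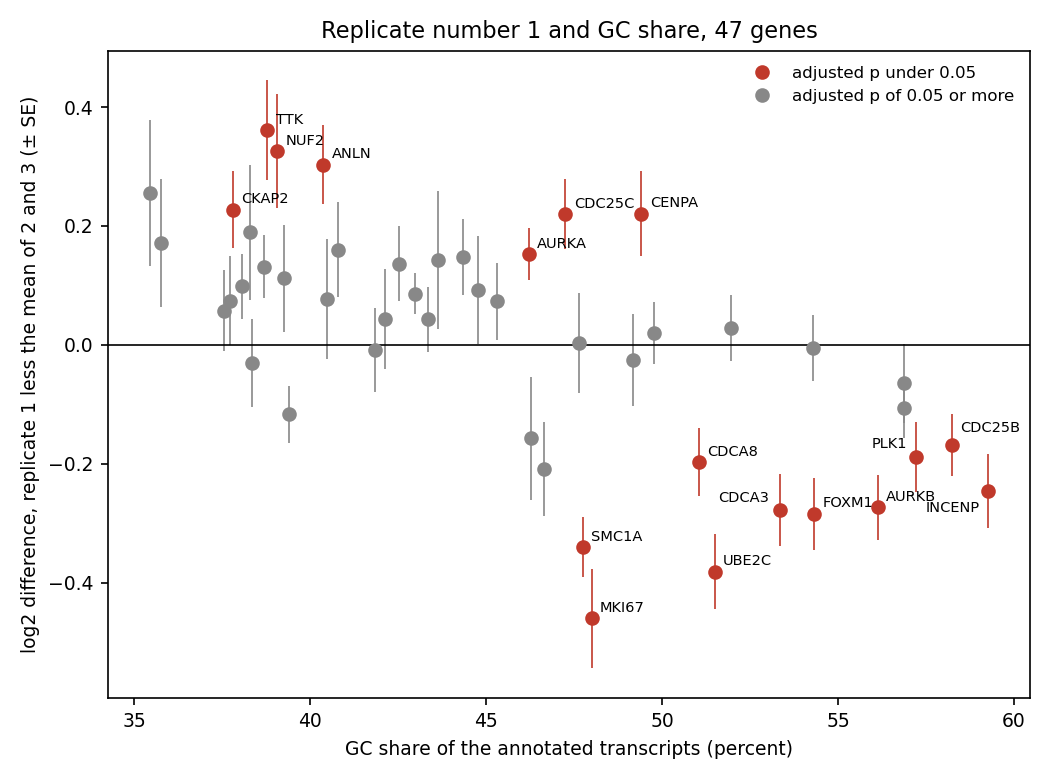
Log2 difference of replicate 1 from the mean of replicates 2 and 3, with its standard error (vertical axis), against the GC share of the annotated transcripts in percent (horizontal axis), for the 47 genes; red points have an adjusted p under 0.05. The 7 red points above 0 lie at GC shares of 37.8 to 49.4% and the 10 below 0 at 47.7 to 59.3% (r = -0.65).

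Other genes of G2 and mitosis gave a background for the 47. Of 113 tested genes from 6 lists, 105 were lower in Mito-Lipo than in DMSO, with a median of -0.19, and 39 were lower and none higher at an unadjusted p under 0.05, where 2.94% of all genes were lower by that rule. All 31 further kinetochore and centromere genes were lower, 13 of them at an unadjusted p under 0.05, led by ZWILCH (-0.34 ± 0.082), MIS18A and ZW10. The spindle and cytokinesis genes, 20 of 21 lower, were led by CEP55, a protein of abscission, with 18.3, 16.6 and 17.8 in DMSO and 12.3, 13.1 and 13.4 in Mito-Lipo. All 15 condensin and cohesin genes were lower, led by NCAPG (-0.37 ± 0.11), TOP2A, which encodes a target of mitoxantrone (-0.33 ± 0.11), and RAD21. Of the entry regulators 15 of 16 were lower, led by CHEK1 (-0.31 ± 0.081), PBK and PLK4. The anaphase-promoting complex list had 14 of 18 lower, led by UBE2S (-0.58 ± 0.19), FBXO5 and CDC23, and the MuvB, B-Myb and RB family list 10 of 12, led by RBL1 (-0.22 ± 0.07), LIN54 and LIN9. None of these passed a limma adjusted p of 0.05 over the 12 libraries. Without replicate 1 of each condition, 99 of the 113 were lower with a median of -0.15, and 23 passed the limma adjusted p of 0.05 and were lower, against 3.32% of all genes and 11 of the 47.

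All 38 S phase genes were lower as well, with a median of -0.23 and 13 at an unadjusted p under 0.05, against the same 2.94% of all genes, led by RFC3 (-0.36 ± 0.079), PRIM2 and RRM1. Their median with replicates 2 and 3 only was -0.25 and 24 of the 38 passed the limma adjusted p of 0.05, beside -0.18 and 11 of the 47 for the mitotic genes; the difference between the lists was not tested. The list of p53-activated and other brakes on G2 lay on the other side of 0: 5 of 6 were higher in Mito-Lipo, 2 of them at an unadjusted p under 0.05, against 4.95% of all genes. Again with replicates 2 and 3 only, 4 of the 6 were higher, and 3 passed the limma adjusted p of 0.05 and were higher, against 3.08% of all genes. BTG2, an antiproliferative p53 target, had 9.02, 13.1 and 13.5 in DMSO, 25.2, 42.9 and 43.2 in Mito-Lipo, 9.81, 11.7 and 12.9 in Gilteritinib and 23.8, 16.02 and 16.3 in Com, and its difference of 1.54 ± 0.23 had a limma adjusted p of 0.177. CDKN1A, the CDK inhibitor p21, had 48.4, 19.3 and 19.1 in DMSO, 113, 45.4 and 45.1 in Mito-Lipo, 20.2, 20.3 and 20.8 in Gilteritinib and 92.1, 30.1 and 30.7 in Com. It was higher in Mito-Lipo than in DMSO at each replicate number, by 1.21, 1.19 and 1.20 on the log2 scale, although the spread between numbers left 1.20 ± 0.49 (limma adjusted p = 0.582). MDM2 had 0.68 ± 0.47.

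Some of the 47 overlap other annotated genes or have genes named as their copies, so their values are uncertain. NUSAP1 (chr15:41332694-41381050), a spindle microtubule protein, had 1.62, 0.911 and 0.864 in DMSO, 1.32, 1.20 and 0.665 in Mito-Lipo, 1.12, 1.55 and 0.912 in Gilteritinib and 0.99, 1.17 and 1.15 in Com, and 62.2% of its exon bases lie within a same-strand gene, AC087721.2, which was itself listed at 0 in 10 of the 12 libraries with a mean FPKM of 0.0025. PRC1, the bundler of central spindle microtubules, had a mean FPKM of 1.11, and 58.4% of its exon bases are overlapped by AC068831.7 on the same strand or by PRC1-AS1. How reads were divided among such genes is not given in the sources used here. The log2 difference of NUSAP1 between Mito-Lipo and DMSO was -0.17, 0.20 and -0.16 at the 3 replicate numbers, and it turned to 0.020 in the fit with replicates 2 and 3 only. Overlaps of 25.6% for SMC4 (TRIM59 and IFT80), 15.9% for FOXM1 (ITFG2) and 12.5% for PLK1 were with genes on the opposite strand, and 10.2% of BUB1B with a readthrough gene on the same strand. Genes named as copies of members were themselves measured. Their mean FPKM was 5.87 for UBE2CP5, 3.96 for PTTG3P, 2.71 for SMC3P1, 2.55 for UBE2CP1 and 2.22 for MAD2L1P1. How alike the sequences are was not tested.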

How the data were processed

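RNA-seq of MV4-11 cells was deposited by the authors as 1 table of FPKM per gene and library, all 12 columns of which were used; 0 columns were left out. The submitters' processing notes list Bowtie 0.12.9, Cufflinks 2.1.1, HTSeq and DESeq2 and the mouse build mm10, although the identifiers are human Ensembl genes; the order of the steps and the annotation are not given in the sources used here. Strand was not stated. The RNA was extracted with a column kit per the labels, amplified by the Geo-seq method and made into libraries with a transposase kit.

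FPKM were analysed as log2(FPKM + 1), for genes with at least 1 FPKM in 3 libraries or more, in limma 3.58.1 (R 4.3.3) with 1 mean for each condition, all 12 libraries in the fit, a trend of variance on level, and Benjamini-Hochberg adjustment over the 18574 genes within a comparison. Fold changes of low genes are understated on this scale. The steps were tested on simulated data. Depth was recovered from the FPKM steps and union exon lengths of GENCODE 29, at which 83.2 to 85.5% of low values were whole fragments within 0.05. Fragments per member ran from 76 (NUSAP1) to 37233 (SMC4), and counting error covers sampling only.

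The members and the gene lists were chosen with earlier results of these data known, so no p is adjusted over a list alone and no list is tested as a set. The named genes are CDK1, CCNB1, PLK1, AURKA, AURKB, TTK, CDC20, MKI67 and FOXM1, in each role the 2 members with the smallest p and the one with the largest in Mito-Lipo against DMSO, and every member with an adjusted p under 0.05 in a comparison over the 12 libraries. Of other lists they are the 3 genes with the smallest p, and CDKN1A. Seeing their values led to the naming of the other 10 members.

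The labels number the libraries 1 to 3 in each condition. Same-numbered libraries of different conditions correlated in their deviations from the condition means in all 18 pairs (0.165 to 0.657). Differently numbered libraries of different conditions reached up to 0.434, so the 2 ranges overlap. The first principal component, 41.9% of the variance, separated number 1. Whether numbers 2 and 3 each pair across conditions was not tested. What a number stands for is not given in the sources used here. A replicate block was tried as an alternative, as were replicates 2 and 3 only, a pseudocount of 0.1, no filter, median-ratio scaling, quantile normalization, the 6 libraries compared alone and each library left out.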

Additional observations from a re-analysis of the deposited data

How the results depend on the processing

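Over the 12 libraries, the count of mitotic genes with an adjusted p under 0.05 was 0 in each of the 6 comparisons and the interaction, and it stayed 0 with a pseudocount of 0.1, no filter, median-ratio scaling, quantile normalization, the replicate block, the 6 libraries compared alone (not run for the interaction) and each library left out. With replicates 2 and 3 only, the count was 11 where Mito-Lipo was set against DMSO, 17 where Com and 25 where Gilteritinib was set against Mito-Lipo, and 2 in the interaction; the cause was not tested. The median of Com against DMSO, -0.085 over all libraries, turned to 0.014 in that fit. The 17 genes that differed in replicate 1 were 11 with no filter and 11 to 17 with 1 library left out, the fewest without DMSO replicate 1. Their median, 0.044, turned to -0.031 with median-ratio scaling and ran from -0.021, without Gilteritinib replicate 1, to 0.10. With 1 library left out, the median of Com against Mito-Lipo ran from 0.12 to 0.23, that of Gilteritinib against DMSO from 0.0087 to 0.14, and that of Mito-Lipo against DMSO from -0.26 to -0.20. NUSAP1 in Mito-Lipo against DMSO, -0.045, was 0.020 with replicates 2 and 3 only and ran from -0.14 to 0.11 with 1 library left out. At an unadjusted p under 0.05, leaving out 1 library gave 9 (DMSO replicate 1) to 19 genes in Mito-Lipo against DMSO, 26 to 33 in Gilteritinib against Mito-Lipo, 0 (Com replicate 1) to 10 in Com against Gilteritinib and 1 (Com replicate 3) to 17 (Com replicate 1) in Com against Mito-Lipo. For the counts with a library left out, the share of all genes is not given, so these ranges describe the 47 only. Counting error at this depth was under 3% in 45 of the 47 genes. It covers sampling of fragments only, and groups held 3 libraries.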
